A study of Mus musculus with 203 samples.

Results

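The 8 genes described here, Ifih1, Dhx58, Trim25, Mavs, Tbk1, Eif2ak2, Zbp1 and Adar, encode proteins that detect foreign or misplaced nucleic acids in the cytosol, pass the signal on, or act on double-stranded RNA. They were taken by gene symbol from the expression table of RAW264.7 cells, where all 8 were found among 25094 genes listed. All 8 were also listed among the 16478 genes of a table from bone marrow-derived macrophages of WT and Gps2 KO mice, which holds no values per library and was not used here.

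RAW264.7, called RAW cells below, is a mouse macrophage cell line. RNA-seq was performed in 4 groups of 4 libraries each. The control line stably expressed a hairpin against GFP (shGFP), and the other line stably expressed a hairpin against Kdm1a (shKDM1A), the gene of a histone lysine demethylase. Each line was left untreated (control) or received 20 ng/ml of IL4, a cytokine that drives alternative macrophage activation, for 6 h. All 4 groups carried a lentiviral hairpin, and Kdm1a was targeted by a single hairpin, so an effect of Kdm1a loss and an effect of that hairpin or of that line cannot be told apart. The study describes its experiments in general as biologically replicated. The labels do not say whether the 4 libraries of a group came from separate cultures. The p-values set group differences against the spread between these libraries, part of which may be technical.

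Cytosolic RNA sensing starts with helicases of the RIG-I family, which bind viral or other double-stranded RNA and engage the adaptor MAVS on mitochondria. MAVS recruits kinases such as TBK1, which phosphorylate transcription factors of the IRF family and thereby switch on type I interferons. Interferons then raise the expression of many sensors and effectors of the same pathway, and in macrophages this loop is part of the antiviral state.

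Expression is given as the deposited log2 value, which the authors computed from reads on exons and which is moderated for weakly expressed genes, so that changes of such genes are understated. Libraries held 17554721 to 27782568 tags. Kdm1a itself lay between 11.07 and 11.23 in the 8 shGFP libraries and between 10.23 and 10.36 in the 8 shKDM1A libraries, and on the linear scale it fell by 45.8% without IL4 and fell by 42.0% with IL4. Of 9 tested IL4 target genes used as a check, 9 rose with IL4 in shGFP cells and 8 in shKDM1A cells. Macrophage markers were expressed, with 7 of 8 passing the filter on low values. Mertk did not pass. Of 16 markers of other cell types 2 passed, Pecam1 at about 1.4 and Zbtb46 at about 4.1, and 8 were listed at 0 in all 4 groups. The summed level of macrophage markers was 17.56 to 17.61 in shGFP control, 17.22 to 17.24 in shGFP IL4, 17.77 to 17.80 in shKDM1A control and 17.66 to 17.76 in shKDM1A IL4 libraries on the log2 scale. That sum, which adds linear values and is mostly Lyz2, moved with both the hairpin and IL4, and its part in the results was not tested. The single markers moved in both directions. With IL4 in shGFP cells 2 of the 7 rose, among them Adgre1 by 1.24, and 3 fell, among them Cd14 (-0.93) and Lyz2 (-0.53). In shKDM1A against shGFP cells without IL4, 4 were higher and 3 lower. The summed level of the other markers stayed between 4.94 and 5.04 in every library. In bulk RNA, fewer expressing cells and less RNA per cell cannot be told apart.

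Promoter sequences are shown first because 6 of the 8 genes were higher in shKDM1A cells both without and with IL4, and interferon-responsive genes often carry a short element, the interferon-stimulated response element (ISRE). RefSeq promoters (build GRCm38.p6, 250 bases before to 50 bases from the start base on) matched 6 of the 8 members, with 3 starts for Adar. Dhx58 and Zbp1 had no entry. Each promoter was searched on both strands for an ISRE core, GAAANNGAAA, for the palindromic STAT element known as GAS, TTCNNNGAA, and for the STAT6-type element, TTCNNNNGAA, which differ in spacing and cannot share both half-sites. The ISRE core was present in the promoters of Ifih1 and Eif2ak2, and in 3.99% of the 27025 genes with a promoter. The GAS element was present in Eif2ak2 and at start 3 of Adar, and in 9.55% of all genes. No member promoter held the STAT6-type element, which 8.01% of all genes hold. Trim25, Mavs, Tbk1 and starts 1 and 2 of Adar held none of the 3 motifs. Of these genes, Trim25 was higher in shKDM1A cells, and Mavs and Tbk1 changed least. Dhx58 and Zbp1 could not be searched, and whether any motif bears on the changes in expression was not tested. The sequences of the members with a match are followed by those of Trim25, Mavs and Tbk1. Capitals mark the ISRE core in Ifih1, the GAS element and then the ISRE core in Eif2ak2, and the GAS element in Adar, and the last 3 sequences have none.
Ifih1, chr2:62646206-62646505, minus strand: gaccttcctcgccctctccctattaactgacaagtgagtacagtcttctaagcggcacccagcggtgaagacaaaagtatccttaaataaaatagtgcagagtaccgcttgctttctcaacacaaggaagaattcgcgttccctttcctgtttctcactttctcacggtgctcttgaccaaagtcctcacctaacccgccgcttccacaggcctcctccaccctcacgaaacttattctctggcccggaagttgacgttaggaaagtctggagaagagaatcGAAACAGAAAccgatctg
Eif2ak2, chr17:78882523-78882822, minus strand: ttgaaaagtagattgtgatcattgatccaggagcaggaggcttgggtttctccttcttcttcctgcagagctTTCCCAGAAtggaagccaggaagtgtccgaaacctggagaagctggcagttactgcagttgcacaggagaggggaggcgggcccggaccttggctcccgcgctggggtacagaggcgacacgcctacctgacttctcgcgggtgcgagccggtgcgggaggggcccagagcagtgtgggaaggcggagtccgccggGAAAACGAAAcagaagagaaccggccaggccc
Adar, start 3, chr3:89730468-89730767, plus strand: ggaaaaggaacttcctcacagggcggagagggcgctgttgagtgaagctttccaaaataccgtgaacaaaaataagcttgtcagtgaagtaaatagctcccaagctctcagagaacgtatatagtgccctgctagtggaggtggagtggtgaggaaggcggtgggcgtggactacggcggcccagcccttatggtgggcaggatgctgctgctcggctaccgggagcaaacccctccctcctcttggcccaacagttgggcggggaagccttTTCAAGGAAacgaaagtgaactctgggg
Trim25, chr11:88999153-88999452, plus strand: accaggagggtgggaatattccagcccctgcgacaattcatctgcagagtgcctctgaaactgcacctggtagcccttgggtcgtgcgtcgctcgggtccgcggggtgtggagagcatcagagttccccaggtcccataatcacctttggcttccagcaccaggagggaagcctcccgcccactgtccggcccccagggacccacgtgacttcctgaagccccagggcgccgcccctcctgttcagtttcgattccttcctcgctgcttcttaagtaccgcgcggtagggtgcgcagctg
Mavs, chr2:131233813-131234112, plus strand: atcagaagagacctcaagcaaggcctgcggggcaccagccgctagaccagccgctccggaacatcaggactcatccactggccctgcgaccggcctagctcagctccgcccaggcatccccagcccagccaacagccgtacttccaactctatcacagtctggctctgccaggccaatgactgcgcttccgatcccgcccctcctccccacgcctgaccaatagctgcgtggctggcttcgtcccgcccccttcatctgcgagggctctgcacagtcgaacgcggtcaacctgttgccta
Tbk1, chr10:121586745-121587044, minus strand: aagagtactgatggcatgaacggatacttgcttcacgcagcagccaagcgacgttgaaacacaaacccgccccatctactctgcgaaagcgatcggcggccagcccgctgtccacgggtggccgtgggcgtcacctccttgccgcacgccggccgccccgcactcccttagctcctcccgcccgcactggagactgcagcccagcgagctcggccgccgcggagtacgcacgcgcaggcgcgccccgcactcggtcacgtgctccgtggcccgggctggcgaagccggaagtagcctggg
The ISRE core began 32 bases after the start base in Ifih1 and 18 bases after it in Eif2ak2. A match describes letters in the window and is not evidence of binding. The search took exact letters only, so the lack of a match does not show that an element is absent. Near the end of the Adar start 3 window, letters that differ from the ISRE core only at the last position were not counted.

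The first question was what knockdown of Kdm1a did in resting cells. All 8 genes were higher in shKDM1A than in shGFP cells without IL4 (limma, Benjamini-Hochberg adjusted p under 0.05). Among all 12905 genes tested, 38.2% were called in either direction, 19.7% higher and 18.4% lower. The median log2 fold change of the 8 genes was 0.44, against -0.0027 for all genes tested. The 8 genes were chosen with earlier results of these data known, so comparisons of the set with all genes are descriptions and not independent evidence. For 7 of the 8 genes every shKDM1A library lay above every shGFP library, and Mavs was the exception. The share of all genes tested that separated in this way was not computed, here or in the comparisons below. Separation therefore describes the values of each gene and does not set the members apart from other genes.

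**Figure D1:**
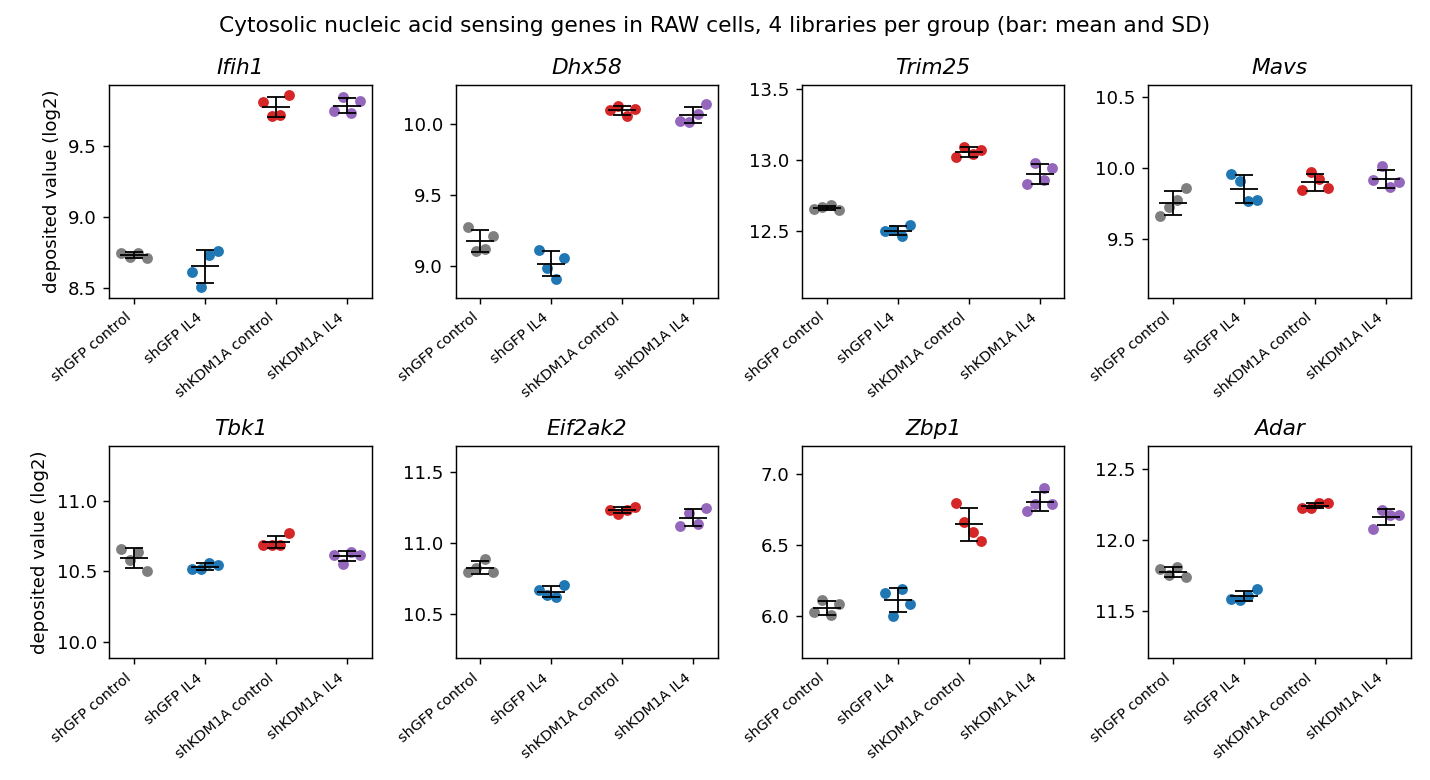
Deposited log2 values (vertical axis, each panel spanning the same range) of the 8 genes in the 4 groups of RAW cells, with 1 point per library and bars for the mean and SD of 4 libraries. Ifih1 and Dhx58 show the widest gap between the lines, and the Mavs groups overlap.

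Among the sensors, Ifih1 encodes MDA5, a helicase that binds long double-stranded RNA. Its 4 shGFP control libraries were at 8.75, 8.71, 8.74 and 8.71, and the 4 shKDM1A control libraries at 9.81, 9.71, 9.72 and 9.86. The groups did not overlap, and expression was 2.06-fold higher (log2 fold change 1.04, SE 0.05, limma adjusted p = 3.8e-11). This exceeded the change of 99.7% of genes tested. Ifih1 lies on chromosome 2 of mm9 from 62433850 to 62484312. Dhx58 encodes LGP2, the helicase of the family that lacks signalling domains and modulates the other sensors. It was at 9.27, 9.10, 9.11 and 9.21 in shGFP control and at 10.10, 10.13, 10.05 and 10.10 in shKDM1A control libraries. All shKDM1A libraries were again higher, by 1.89-fold (log2 fold change 0.92, SE 0.04, limma adjusted p = 7.3e-11). Dhx58 lies on chromosome 11 from 100556198 to 100565585.

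Trim25 encodes a ubiquitin ligase that acts on the RIG-I pathway. It was at 12.65, 12.67, 12.68 and 12.65 in shGFP control libraries and at 13.02, 13.10, 13.04 and 13.07 in shKDM1A control libraries. These groups were well separated, at 1.31-fold (log2 fold change 0.39, SE 0.03, limma adjusted p = 1.4e-08). Trim25 lies on chromosome 11 from 88860717 to 88881607.

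The adaptor and the kinase changed least. Mavs was at 9.66, 9.73, 9.78 and 9.86 in shGFP control and at 9.85, 9.98, 9.92 and 9.86 in shKDM1A control libraries. The ranges overlapped, and the log2 fold change was 0.15 (SE 0.05, limma adjusted p = 0.030). This call was lost in 5 alternatives, including without shGFP control replicate 1 (0.11, adjusted p = 0.10), without shGFP control replicate 2 (0.14, adjusted p = 0.071), without shKDM1A control replicate 2 (0.12, adjusted p = 0.094) and without shKDM1A control replicate 3 (0.14, adjusted p = 0.069). Tbk1 was at 10.66, 10.58, 10.64 and 10.50 in shGFP control and at 10.69, 10.69, 10.69 and 10.77 in shKDM1A control libraries. Its groups were adjacent without overlapping, at a log2 fold change of 0.11 (SE 0.03, limma adjusted p = 0.0086). Mavs lies on chromosome 2 from 131059799 to 131073760 and Tbk1 on chromosome 10 from 120983513 to 121023850.

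The 3 members that act on double-stranded RNA or on left-handed nucleic acid all rose. Zbp1 encodes a sensor of Z-form nucleic acid that can trigger cell death. It was at 6.03, 6.11, 6.01 and 6.09 in shGFP control and at 6.79, 6.66, 6.59 and 6.53 in shKDM1A control libraries, with no overlap. The log2 fold change was 0.59 (SE 0.05, limma adjusted p = 1.7e-07), and its values were the lowest of the 8 genes, where moderation is strongest. Adar encodes an enzyme that edits adenosine to inosine in double-stranded RNA. It was at 11.79, 11.75, 11.81 and 11.74 in shGFP control and at 12.23, 12.22, 12.26 and 12.26 in shKDM1A control libraries. All shKDM1A libraries were higher, by 1.38-fold (log2 fold change 0.47, SE 0.03, limma adjusted p = 1.1e-09). Reads were counted on both strands, and the 3′ end of Adar overlaps Chrnb2 on the opposite strand, with a mean value of 7.72, by 8 bases against a counted length of 5893, so only reads over those bases could not be separated. Eif2ak2 encodes PKR, a kinase that halts translation when it binds double-stranded RNA. It was at 10.80, 10.82, 10.89 and 10.80 in shGFP control and at 11.23, 11.21, 11.23 and 11.26 in shKDM1A control libraries. The difference was 1.32-fold (log2 fold change 0.40, SE 0.03, limma adjusted p = 1.6e-08). In mm9 Zbp1 lies on chromosome 2 from 173032114 to 173044423, Adar on chromosome 3 from 89534640 to 89557377 and Eif2ak2 on chromosome 17 from 79251890 to 79281912.

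The same comparison in IL4-treated cells called 6 of the 8 genes higher and none lower. Background calls were 40.7% of genes in either direction, 20.9% higher and 19.8% lower. The median log2 fold change was 0.54 over the 8 genes and -0.0024 over all genes. Ifih1 was at 8.61, 8.50, 8.73 and 8.76 in shGFP IL4 and at 9.74, 9.84, 9.73 and 9.82 in shKDM1A IL4 libraries, a log2 fold change of 1.13 (limma adjusted p = 1.3e-11). Dhx58 rose by 1.05 (limma adjusted p = 1.5e-11), Zbp1 by 0.70 (limma adjusted p = 2.0e-08) and Adar by 0.56 (limma adjusted p = 1.4e-10). Eif2ak2 rose by 0.52 (limma adjusted p = 6.8e-10) and Trim25 by 0.40 (limma adjusted p = 1.1e-08). For these 6 genes the groups did not overlap, again without a share over all genes to compare. Mavs, at 0.07 (95% confidence interval -0.03 to 0.18, limma adjusted p = 0.27), and Tbk1, at 0.07 (0.01 to 0.14, limma adjusted p = 0.076), were not called. Tbk1 passed the test in 2 alternatives, without shKDM1A IL4 replicate 2 (0.09) and with only the 2 groups fitted (0.07), with a limma adjusted p of 0.040 in both. The comparisons with and without IL4 use different libraries, but each shares libraries with the IL4 comparisons that follow.

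**Figure D2:**
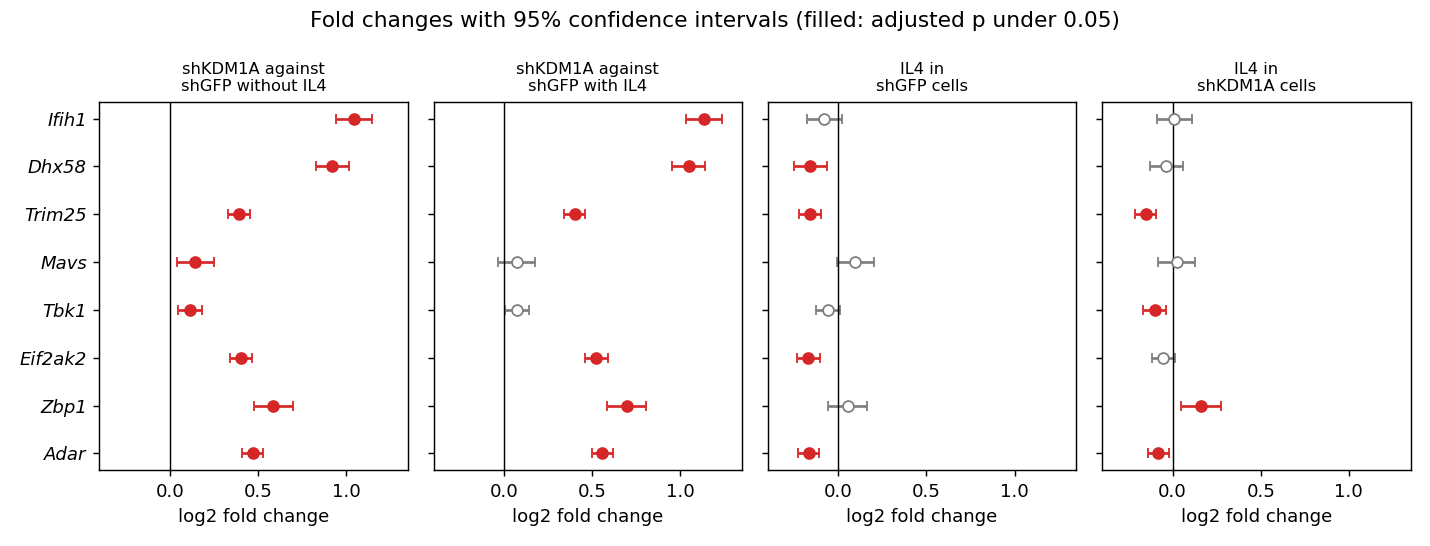
Log2 fold changes of the 8 genes (horizontal axis) with 95% confidence intervals in 4 comparisons, filled where the limma adjusted p was under 0.05. Ifih1 and Dhx58 lie near 1 in both comparisons of the lines, while changes with IL4 stay between -0.17 and 0.16.

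IL4 lowered a subset of the genes by small amounts. In shGFP cells 4 of the 8 genes fell and none rose, against 26.9% of all genes called, 13.1% higher and 13.7% lower. Eif2ak2 went from 10.80, 10.82, 10.89 and 10.80 to 10.67, 10.63, 10.62 and 10.71, with every IL4 library below every control library (log2 fold change -0.17, SE 0.03, limma adjusted p = 4.2e-04). Adar (-0.17, limma adjusted p = 2.4e-04) and Trim25 (-0.16, limma adjusted p = 5.3e-04) also fell without overlap. Dhx58 fell (-0.16, limma adjusted p = 0.013) with overlapping groups. Ifih1 (-0.08), Mavs (0.10), Zbp1 (0.05) and Tbk1 (-0.06) were not called. Without shGFP control replicate 4 the Tbk1 value was -0.09 and passed the test (limma adjusted p = 0.027).

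In shKDM1A cells IL4 lowered 3 of the 8 genes and raised 1, against 27.1% of all genes called, 13.6% higher and 13.5% lower. Trim25 went from 13.02, 13.10, 13.04 and 13.07 to 12.84, 12.98, 12.86 and 12.94 (log2 fold change -0.15, SE 0.03, limma adjusted p = 7.4e-04). Tbk1 fell by 0.10 (limma adjusted p = 0.024) and Adar by 0.08 (limma adjusted p = 0.042), and Zbp1 rose by 0.16 (limma adjusted p = 0.033). Trim25, Tbk1 and Adar did not overlap between the groups, and Zbp1 did. The calls of Tbk1, Adar and Zbp1 were lost when single libraries were left out. Without shKDM1A control replicate 4 only 1 gene, Trim25, was called, with Tbk1 at -0.08 (adjusted p = 0.085), Adar at -0.08 (adjusted p = 0.099) and Zbp1 at 0.12 (adjusted p = 0.11). Leaving out shKDM1A control replicate 2 or 3, or shKDM1A IL4 replicate 3 or 4, left 2 genes called in each case.

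Whether the IL4 response differed between the lines was tested as an interaction. None of the 8 genes passed (limma), while 6.13% of all genes did, 3.56% with a higher and 2.57% with a lower response in shKDM1A cells. At an unadjusted p under 0.05 there were 2 members, Eif2ak2 at 0.12 (95% confidence interval 0.03 to 0.21, adjusted p = 0.11) and Adar at 0.09 (0.0036 to 0.17, adjusted p = 0.20). The intervals of the other 6 included 0 and reached at most 0.27 upward, for Zbp1, and -0.22 downward, for Mavs.

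Levels of different genes were compared per kb of counted exon. In shGFP control cells the order was Trim25 (10.19), Adar (9.21), Tbk1 (9.01), Eif2ak2 (8.72), Mavs (8.13), Dhx58 (7.91), Ifih1 (6.27) and Zbp1 (5.07), and no neighbours overlapped over their 4 libraries. In shKDM1A control cells Eif2ak2 (9.13) and Tbk1 (9.12) overlapped, and Dhx58 (8.83) stood above Mavs (8.27). Ifih1 (7.31) and Zbp1 (5.66) stayed last in that group. Within a group the SD of a member over 4 libraries ranged from 0.02 to 0.12.

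**Figure D3:**
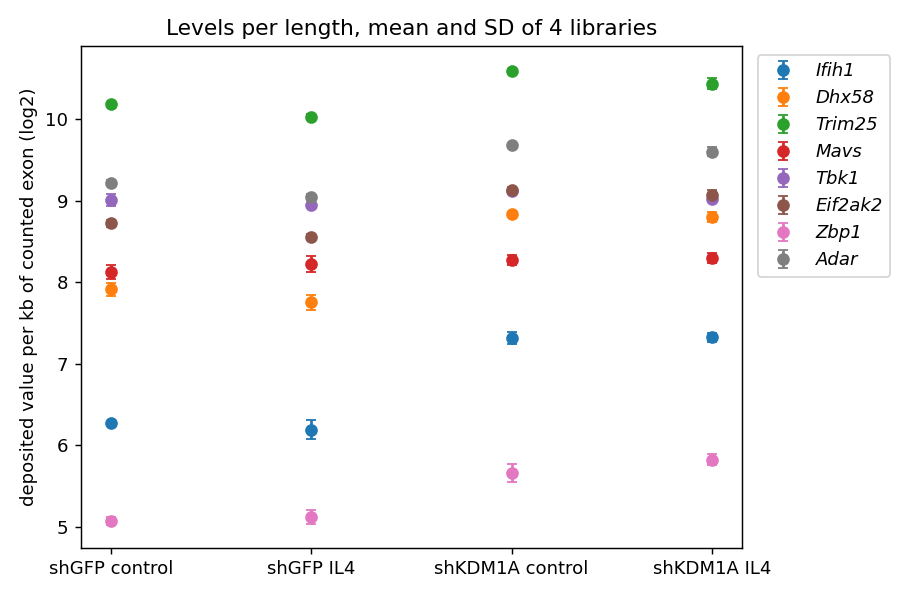
Mean level per kb of counted exon on the log2 scale (vertical axis) of the 8 genes in the 4 groups, with error bars for the SD of 4 libraries. Dhx58 lies below Mavs in both shGFP groups and above it in both shKDM1A groups.

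The genes whose values were most like each member over the 16 libraries were named by Pearson's r, given as a description since all values come from the same libraries of 4 groups. Ifih1 was most like Oasl2 (0.994) and Parp9 (0.993), and Dhx58 most like Oas1a (0.992) and Nkain1 (0.992). Oas1a belongs to a family of near-identical genes, so its reads may be shared between copies. Eif2ak2 was most like Trim30a (0.993) and Tfrc (0.991), Adar most like Oas3 (0.991) and Ifi44 (0.991), and Trim25 most like Asph (0.988) and Slc23a2 (0.986). Zbp1 was most like Epop (0.980) and Zfp467 (0.978). The highest values were lower for Tbk1, with Ate1 (0.915) and 4930430F08Rik (0.887), and for Mavs, with Clstn1 (0.804) and Txnrd1 (0.802).

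Other genes of these pathways were described from 6 lists with 119 tested genes. The lists were chosen with earlier results of these data known, so shares that differ from those of all genes may in part reflect that choice. Without IL4, 40.3% of these were higher in shKDM1A cells, against 19.7% of all genes, and 21.0% were lower, against 18.4%. Among genes of RIG-I itself, related helicases and regulators of these sensors, 7 of 20 were higher in shKDM1A cells without IL4 and 4 were lower, with a list median of 0.0045. Ddx58, which encodes RIG-I, lay between 9.76 and 9.89 in shGFP control and between 10.74 and 10.90 in shKDM1A control libraries (log2 fold change 0.94, SE 0.04, limma adjusted p = 4.0e-11). Ddx60, a further helicase, rose by 0.63, and Ube2d3, a ubiquitin-conjugating enzyme, fell by 0.13 and the phosphatase subunit Ppp1cc by 0.09. In signalling downstream of MAVS and TBK1, 6 of 26 were higher and 5 lower (median 0.01), shares near those of all genes. Irf7, the interferon regulatory factor that amplifies interferon production, had the largest change in these lists. It lay between 9.67 and 9.73 in shGFP control and between 11.90 and 11.96 in shKDM1A control libraries (log2 fold change 2.23, SE 0.02, limma adjusted p = 1.3e-18). Dok3 rose by 0.35, while Irf3, the factor that TBK1 phosphorylates, fell by 0.20 and Traf5 by 0.17.

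**Figure D4:**
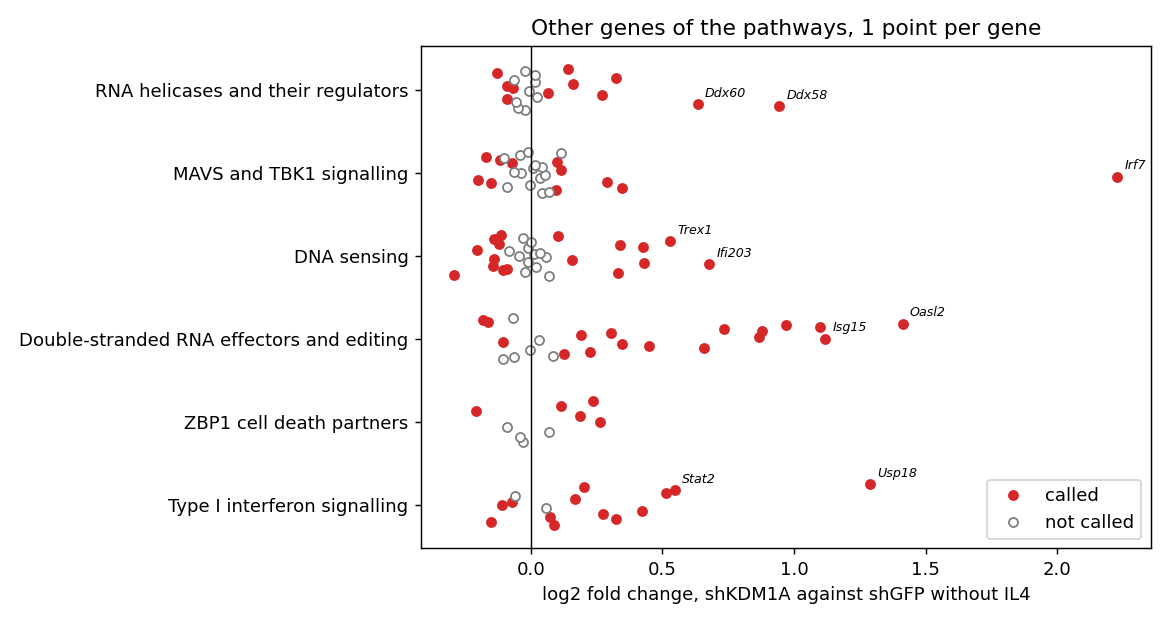
Log2 fold change in shKDM1A against shGFP cells without IL4 (horizontal axis) of the tested genes of 6 pathway lists, with 1 point per gene, filled where called. Named are the highest called genes of a list where over 0.5. Irf7 lies at 2.23 and Oasl2 at 1.41, and most genes of the first 3 lists lie near 0.

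Of the effectors that act on double-stranded RNA or are known to be induced with them, 14 of 23 were higher and 3 lower (median 0.22). Oasl2, of the oligoadenylate synthetase family, rose by 1.41 and the ubiquitin-like modifier Isg15 by 1.12. Stau1, an RNA-binding protein, fell by 0.18. In type I interferon signalling 10 of 15 were higher and 3 lower (median 0.17), with Usp18, a negative regulator of the receptor, at 1.29 and Stat2 at 0.55, and the receptor chain Ifnar2 at -0.15 and Ptpn11 at -0.11. Ifnb1, which encodes interferon beta, did not pass the filter and lay between -0.20 and -0.18 in all 16 libraries. Genes of DNA sensing were split, with 8 of 29 higher and 9 lower (median -0.01). Ifi203 rose by 0.68 and the exonuclease Trex1 by 0.53, while the DNA sensor Aim2 fell by 0.29 and Rnaseh2b by 0.21. Of the partners of ZBP1 in cell death, 4 of 9 were higher and 1 lower (median 0.07), with the pore-forming Gsdmd at 0.26, the kinase Ripk3 at 0.24 and Nlrp3 at -0.21.

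With IL4, 40.3% of the 119 genes were higher in shKDM1A cells, against 20.9% of all genes, and 18.5% were lower, against 19.8%. The comparison called 4 of 20 genes of RIG-I, related helicases and their regulators higher and 3 lower, near the shares of all genes, 11 of 26 MAVS and TBK1 signalling genes higher and 6 lower, and 8 of 29 DNA sensing genes higher and 5 lower. It called 14 of 23 effectors higher and 4 lower, 4 of 9 ZBP1 partners higher and none lower, and 7 of 15 interferon signalling genes higher and 4 lower. Irf7 was at 2.30, Usp18 at 1.62, Oasl2 at 1.36, Isg15 at 1.18 and Ddx58 at 1.17 in this comparison. The IL4 response differed between the lines for Usp18 (interaction 0.33, limma adjusted p = 3.9e-04), Oas2 (0.24, limma adjusted p = 0.044), Ddx58 (0.23, limma adjusted p = 0.036), Casp6 (0.20, limma adjusted p = 0.019), Irf9 (0.14, limma adjusted p = 0.018), Dok3 (-0.20, limma adjusted p = 0.0057) and Socs1 (-0.33, limma adjusted p = 0.015). The other 112 list genes were not called, and the share called, 5.88%, was near the 6.13% of all genes.

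IL4 itself called list genes in both directions. In shGFP cells 20 of the 119 rose (16.8%, against 13.1% of all genes) and 26 fell (21.8%, against 13.7%). By list, 5 of 20 genes of the helicase list rose and 1 fell, 3 of 26 MAVS and TBK1 signalling genes rose and 6 fell, and 3 of 29 DNA sensing genes rose and 9 fell. Of the effectors 2 of 23 rose and 5 fell, of the ZBP1 partners 2 of 9 rose and 1 fell, and of the interferon signalling genes 5 of 15 rose and 4 fell. The falls included the kinase Ikbke (-0.44), Usp18 (-0.41), the transcription factor Irf8 (-0.36), the autophagy receptor Sqstm1 (-0.35), Oas2 (-0.30), Ddx58 (-0.28) and Oas3 (-0.25). The rises included Socs1, a feedback inhibitor of cytokine signalling (0.71), Casp6 (0.69) and Irf5 (0.39). In shKDM1A cells 24 of the 119 rose (20.2%, against 13.6% of all genes) and 19 fell (16.0%, against 13.5%). Here 6 of 20 genes of the helicase list rose and 1 fell, 3 of 26 signalling genes rose and 3 fell, 5 of 29 DNA sensing genes rose and 8 fell, 2 of 23 effectors rose and 3 fell, 2 of 9 ZBP1 partners rose and none fell, and 6 of 15 interferon signalling genes rose and 4 fell. Sqstm1 (-0.46), Ikbke (-0.33), Irf8 (-0.31), Oas3 (-0.18) and Ifit2 (-0.16) were lower, and Casp6 (0.89), Irf5 (0.44) and Socs1 (0.37) were higher.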

How the data were processed

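RNA-seq of RAW cells was analysed in 4 groups of 4 libraries, assigned from the sample labels. Per the file headers, the authors counted reads on exons of mm9 genes with HOMER on both strands, condensed to 1 row per gene, and ran its DESeq2 step. The deposited values are log2 scores per library, moderated for low expression; the transformation is not given in the sources used here. Depth was 17554721 to 27782568 tags per library. The table of bone marrow-derived macrophages holds the authors' own fold changes and p-values, as do further columns of the RAW table, and none were used. The other assays of the series were not analysed here.

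Values were read as deposited, with decimal commas, and fitted with limma 3.58.1 in R 4.3.3 (group means of the 4 groups, eBayes, two-sided, Benjamini-Hochberg per comparison over all genes tested). The filter required 4 or more of the 16 libraries to reach a value of 1, which kept 12905 of 25094 genes and all 8 members. The fit was tested on simulated data. Within groups, 24 pairs of libraries differed by a median of 0.04 to 0.06 per gene, and no gene had identical values in a pair. Named were the 8 members, Kdm1a, the 2 largest called changes in each direction per list and comparison, and the 2 genes most like each member. Of the genes this rule gives, the text prints a selection. Members and lists were chosen with earlier results of these data known. Promoters came from RefSeq (GRCm38.p6). Alternatives were the filter, prior variance, centring, quantile normalization, the groups fitted, a replicate block, a fold limit and leaving out each library.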

Additional observations from a re-analysis of the deposited data

Results flagged for a closer look

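Tbk1 in shKDM1A control replicate 4 was at 10.77, while the other 3 libraries of its group were nearly equal, all at 10.69. In shGFP control libraries Tbk1 ranged from 10.50 to 10.66. The value of 10.77 was the only 1 that stood apart by Dixon's test among 32 tests of the members (8 genes in 4 groups). Chance alone marks about 1 in 20 groups. Without this library the fall of Tbk1 with IL4 in shKDM1A cells was 0.08 on the log2 scale (-0.08, adjusted p = 0.085), no longer past the threshold, and the call of Tbk1 in shKDM1A against shGFP control cells was kept. The cause was not tested.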

How the results depend on the processing

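Of 696 fold changes of the 8 genes recomputed under alternatives, 668 kept their direction and side of the threshold, 25 fell below it, 3 rose past it and none reversed. The calls lost were those of Mavs between the untreated lines and of Adar, Zbp1 and Tbk1 with IL4 in shKDM1A cells. That last comparison called 4 members, but 2 with no filter on low values, 2 when only its own 2 groups were fitted, and 1 to 3 when single libraries were left out; the cause was not tested. Requiring an absolute log2 fold change over 0.5 left 0 members for IL4 in shGFP cells, 0 for IL4 in shKDM1A cells, 3 for the untreated lines, 5 for the IL4-treated lines and 0 for the difference in IL4 response, and lowered the counts over all genes to 174 for IL4 in shGFP cells, 141 for IL4 in shKDM1A cells, 337 for the untreated lines, 319 for the IL4-treated lines and 17 for the difference in IL4 response, since most called changes are small. Same-numbered libraries of different groups mostly did not deviate together (r from -0.34 to 0.27, over 0.1 in 3 of 24 pairs). The numbers therefore gave no ground for pairing in the main fit, but paired cultures are not excluded. Differently numbered libraries reached similar values, such as shGFP control 4 with shKDM1A IL4 3 (r = 0.36) and with shKDM1A IL4 2 (r = -0.33). The cause was not tested. With a replicate block 4, 3, 8, 6 and 0 members were called for IL4 in shGFP cells, IL4 in shKDM1A cells, the untreated lines, the IL4-treated lines and the difference in IL4 response. Over all genes, quantile normalization changed the split between the untreated lines from 2548 higher and 2379 lower to 2225 and 2929, and between the IL4-treated lines from 2694 and 2561 to 2384 and 2917. Median centring gave 2972 and 2274 between the IL4-treated lines, 2025 and 1560 in place of 1752 and 1745 for IL4 in shKDM1A cells, and 558 and 285 in place of 459 and 332 for the difference in IL4 response. Under both scalings 8 members were called for the untreated lines, 6 for the IL4-treated lines and 0 for the difference, and for IL4 in shKDM1A cells 4 under quantile normalization and 3 under median centring. Moderated values limit what can be said of weakly expressed genes such as Zbp1.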
